A study of Mus musculus with 8 samples.

Results

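Serine/threonine protein phosphatases remove phosphate from proteins and so oppose the kinases of the same cell. The PPP family (PP1, PP2A, calcineurin, PP4, PP5 and PP6) works through a few catalytic subunits, and most of them gain their place and substrates from a large set of regulatory subunits. Enzymes of the PPM family act mostly without such subunits and need magnesium or manganese. In forebrain neurons calcineurin and PP1 are known for their part in synaptic depression, and PP2A is the main phosphatase of the microtubule protein tau.

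The genes described here are those whose symbol starts with Ppp and a digit or with Ppm1, leaving out Ppp3ca, Ppp1r15a, Ppp1r15b, Ppp1r9a and Ppp1r9b. The rule found 60 genes among the 10601 with a symbol row in the deposited tables. They comprised 9 catalytic PPP subunits, calcineurin B (Ppp3r1), 40 other regulatory subunits and 10 PPM genes, and the rule chose them by symbol. Ppp4r1l-ps, whose symbol ends as that of a pseudogene, is counted throughout with the regulatory subunits of PP4. The table that gave the symbols holds only genes past the authors' minimum read level, so a gene could enter it through 1 mouse.

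RNA was taken from the right cortex of 4 bigenic mice, which carried Camk2a-tTa and deltaNLS-hTDP-43, and of 4 nontransgenic mice, all of strain C57BL/6. TDP-43 is an RNA-binding protein, and the transgene is the human protein with a mutated nuclear localization signal. The Camk2a promoter drives the transactivator mainly in excitatory forebrain neurons, and doxycycline holds the transgene off. In both groups doxycycline was withdrawn from the diet at 28 days of age and RNA was prepared 10 days later, so the controls had the same diet. Poly(A)+ RNA was sequenced, and values are the authors' normalized counts, rounded to whole numbers.

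The depth that the steps between low values gave was 10.6 to 31.9 M reads per mouse, and 3 reads corresponded to 1.94 to 6.20 normalized counts. The shallowest library, a bigenic one, stood apart from the other 7 on the first principal components, and its correlation with nontransgenic libraries went down to 0.90. Mouse Tardbp, the endogenous counterpart of the transgene, was at 5180 ± 249 in bigenic and 6538 ± 420 in nontransgenic mice (SD, n = 4, limma adjusted p = 0.0064). Values per mouse are always listed in the same order, and the second bigenic value is always the shallowest library. All 60 genes reached 10 RPM (reads scaled to the library total) in at least 1 mouse, and 55 did so in every mouse.

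Of the 60 phosphatase genes, 20 passed an adjusted p of 0.05 in limma over all 10588 genes tested, against 35.9% of all those genes. Of these, 8 were higher in bigenic mice, against 20.5% of all genes, and 12 were lower, against 15.4%. The values of the groups did not overlap in 25 of the 60, against 39.0% of all genes. These shares lie near the background, so the family taken whole did not stand apart. The median log2 fold change was -0.03 over the 60 and 0.03 over all genes. The calls were spread unevenly over the roles, with 8 of 9 catalytic PPP subunits, 9 of 41 regulatory subunits and 3 of 10 PPM genes past the threshold. No test of that unevenness was made.

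**Figure D1:**
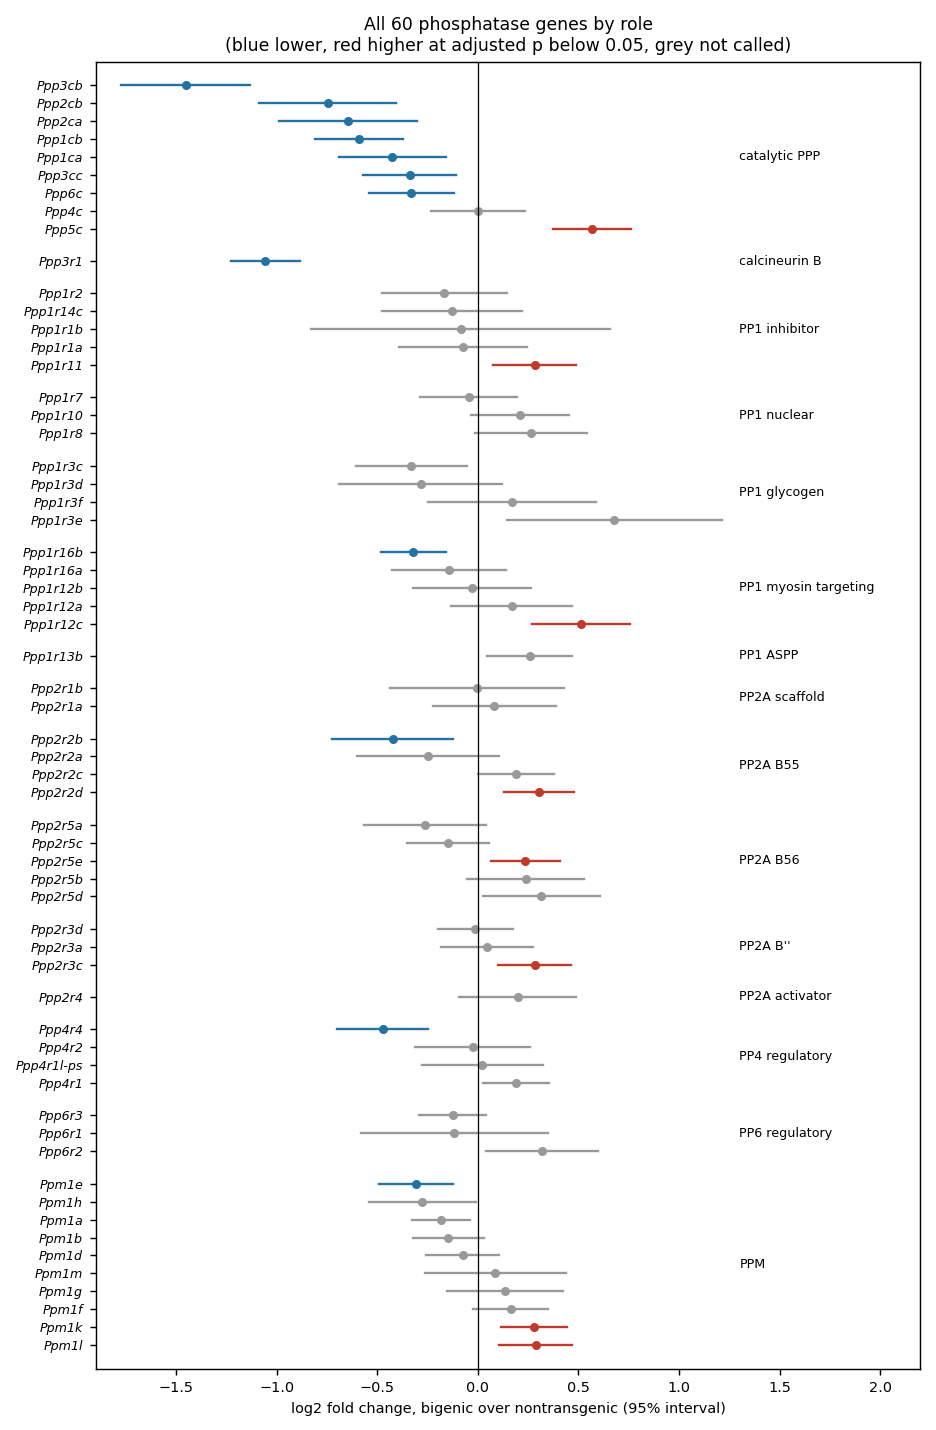
Log2 fold change of bigenic over nontransgenic mice (x axis) for each of the 60 genes, grouped by role; lines are 95% intervals from limma, blue genes were lower and red genes higher at an adjusted p below 0.05, grey genes were not called. The catalytic PPP subunits run from -1.45 for Ppp3cb to 0.57 for Ppp5c, and 7 of the 9 are blue.

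Among the catalytic PPP subunits, 7 of 9 fell, 1 rose (Ppp5c) and 1 was not called (Ppp4c). The fall was deepest in calcineurin, the calcium-activated phosphatase made of a catalytic A and a regulatory B subunit. Ppp3cb (uc007sjx.2, chromosome 14 from 21318586 to 21365795, minus strand, NCBIM37), which encodes calcineurin A beta, gave 3595, 2294, 3716 and 3372 normalized counts in bigenic mice, while controls gave 9439, 8488, 9052 and 8008. Every bigenic value lay far below the lowest control, with no overlap. The bigenic mean was 37.1% of the control mean, a log2 fold change of -1.45 (95% interval -1.77 to -1.13, limma adjusted p = 9.5e-05).

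Ppp3r1 (uc007ica.1, chromosome 11 from 17059266 to 17100378, plus strand, NCBIM37) encodes the calcineurin B subunit that binds calcium and stabilizes the A subunit. It gave 11273, 10189, 11749 and 11409 normalized counts in bigenic and 25060, 21871, 24183 and 21697 in nontransgenic mice. The groups were wide apart, and the bigenic mice differed little among themselves. The bigenic mean was 48.1% of the control mean, a log2 fold change of -1.06 (95% interval -1.23 to -0.88, limma adjusted p = 2.5e-05). Exons of Wdr92 overlap 462 bases of Ppp3r1, on the same strand.

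Ppp3cc, the calcineurin A gamma gene, was low in this tissue, with 303, 285, 292 and 288 normalized counts in bigenic and 410, 364, 398 and 314 in nontransgenic mice. It did not overlap between groups but came close, and its log2 fold change was -0.34 (limma adjusted p = 0.029). Ppp3ca, the calcineurin A alpha gene that the rule leaves out, gave 8258, 6690, 8127 and 7954 in bigenic against 15918, 14441, 16086 and 14658 in nontransgenic mice, a difference of -0.98 on the log2 scale (limma adjusted p = 4.9e-05). Per kilobase of exon, Ppp3cb made up 26.1% ± 2.5 (SD, n = 4) of the level of the 3 A subunit genes in bigenic mice and 33.4% ± 0.783 in nontransgenic mice, without overlap. The ratio of Ppp3r1 to the summed A subunit level per kilobase was 1.70 ± 0.118 in bigenic and 1.65 ± 0.0260 in nontransgenic mice, and these ratios overlapped. Bulk tissue was sequenced, so fewer cells of a type and less RNA per cell cannot be told apart in any of these results.

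The calcineurin genes with the deepest falls and Ppp5c, which moved the other way, are shown by the 250 bases before their RefSeq start sites (GRCm38.p6, a later build than that of the other positions). Capitals mark 3 kinds of match, each searched on both strands. The first is the GC box, a site of SP1-type factors, spelled GGGCGG. The second is the CCAAT box, named by its letters. The third is the core of the cyclic AMP response element, which is spelled TGACG. The Ppp3cb stretch is chr14:20546574-20546823 on the minus strand, that of Ppp3r1 is chr11:17159048-17159297 on the plus strand and that of Ppp5c is chr7:17027915-17028164 on the minus strand.
Ppp3cb: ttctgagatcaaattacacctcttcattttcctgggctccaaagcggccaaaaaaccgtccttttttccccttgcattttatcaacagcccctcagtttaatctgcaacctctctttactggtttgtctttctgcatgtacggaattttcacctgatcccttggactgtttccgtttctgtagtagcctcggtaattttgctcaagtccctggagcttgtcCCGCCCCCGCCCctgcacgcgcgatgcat
Ppp3r1: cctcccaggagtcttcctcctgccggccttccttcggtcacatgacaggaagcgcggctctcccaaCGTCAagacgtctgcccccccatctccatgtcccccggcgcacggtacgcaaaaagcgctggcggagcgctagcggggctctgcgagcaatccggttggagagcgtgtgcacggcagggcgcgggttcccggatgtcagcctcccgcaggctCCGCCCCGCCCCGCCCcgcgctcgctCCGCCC
Ppp5c: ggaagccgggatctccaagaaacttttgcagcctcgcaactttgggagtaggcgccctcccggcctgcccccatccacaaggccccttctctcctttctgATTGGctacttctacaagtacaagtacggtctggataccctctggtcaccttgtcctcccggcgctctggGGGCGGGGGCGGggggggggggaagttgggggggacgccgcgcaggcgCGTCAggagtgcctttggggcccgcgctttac
The Ppp3cb stretch was the poorest of the 3 in GC (48.4%, against 70.8% for Ppp3r1 and 64.8% for Ppp5c). All 3 hold at least 1 GC box.

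PP2A has 2 genes for its catalytic subunit, and both fell. Ppp2ca (alpha) gave 5355, 3557, 5845 and 5796 normalized counts in bigenic mice and 8478, 7924, 8375 and 6888 in nontransgenic mice. Ppp2cb (beta) gave 2853, 1878, 3148 and 3078 in bigenic and 4526, 4442, 4955 and 4139 in nontransgenic mice. Neither gene overlapped between groups, and the shallowest library was the lowest in both. The log2 fold changes were -0.65 for Ppp2ca (95% interval -0.99 to -0.30, limma adjusted p = 0.0096) and -0.75 for Ppp2cb (-1.09 to -0.40, adjusted p = 0.0047). Other annotated transcripts overlap up to 2985 bases of the exons of Ppp2ca, and Ubxn8 overlaps 209 bases of Ppp2cb on the opposite strand. Summed per kilobase, the 2 catalytic genes stood at 61.9% of the control mean. Ppp2r1a, the main scaffold subunit that carries the catalytic subunit, did not fall with them and is described below.

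Of the PP1 catalytic genes, the rule found Ppp1cb and Ppp1ca, and both fell too. Ppp1cc (gamma) was not among the genes that the rule found, so nothing is said of it here. Ppp1cb (beta) gave 7517, 5607, 7320 and 6843 normalized counts in bigenic and 10655, 10355, 10354 and 9479 in nontransgenic mice. Ppp1ca (alpha) gave 2325, 1865, 2714 and 2696 in bigenic and 3271, 3348, 3214 and 2927 in nontransgenic mice. Both were lower in every bigenic mouse than in any control. The log2 fold changes were -0.59 for Ppp1cb (95% interval -0.81 to -0.37, limma adjusted p = 0.0016) and -0.42 for Ppp1ca (-0.69 to -0.16, adjusted p = 0.021). Exons of Rad9, on the opposite strand, overlap 222 bases of Ppp1ca.

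The other PPP enzymes differed from one another in direction. Ppp6c, the PP6 catalytic subunit, gave 480, 409, 523 and 523 normalized counts in bigenic and 621, 612, 592 and 598 in nontransgenic mice. All bigenic values lay below the controls, with a log2 fold change of -0.33 (95% interval -0.54 to -0.12, limma adjusted p = 0.022). Ppp4c, the PP4 catalytic subunit, gave 448, 362, 493 and 463 in bigenic and 426, 450, 443 and 434 in nontransgenic mice. Its groups overlapped, and its log2 fold change of 0.00 (95% interval -0.23 to 0.23, adjusted p = 0.99) had no settled sign, since quantile normalization gave -0.02.

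Ppp5c encodes PP5, a phosphatase that works with the chaperone Hsp90 and carries its own regulatory domain in the same chain. It was the only catalytic PPP gene that rose, with 3016, 3538, 2784 and 2908 normalized counts in bigenic and 2163, 2045, 2035 and 1989 in nontransgenic mice. The lowest bigenic mouse lay well above the highest control, and the shallowest library was the highest. The bigenic mean was 149% of the control mean, a log2 fold change of 0.57 (95% interval 0.38 to 0.76, limma adjusted p = 0.0010).

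**Figure D2:**
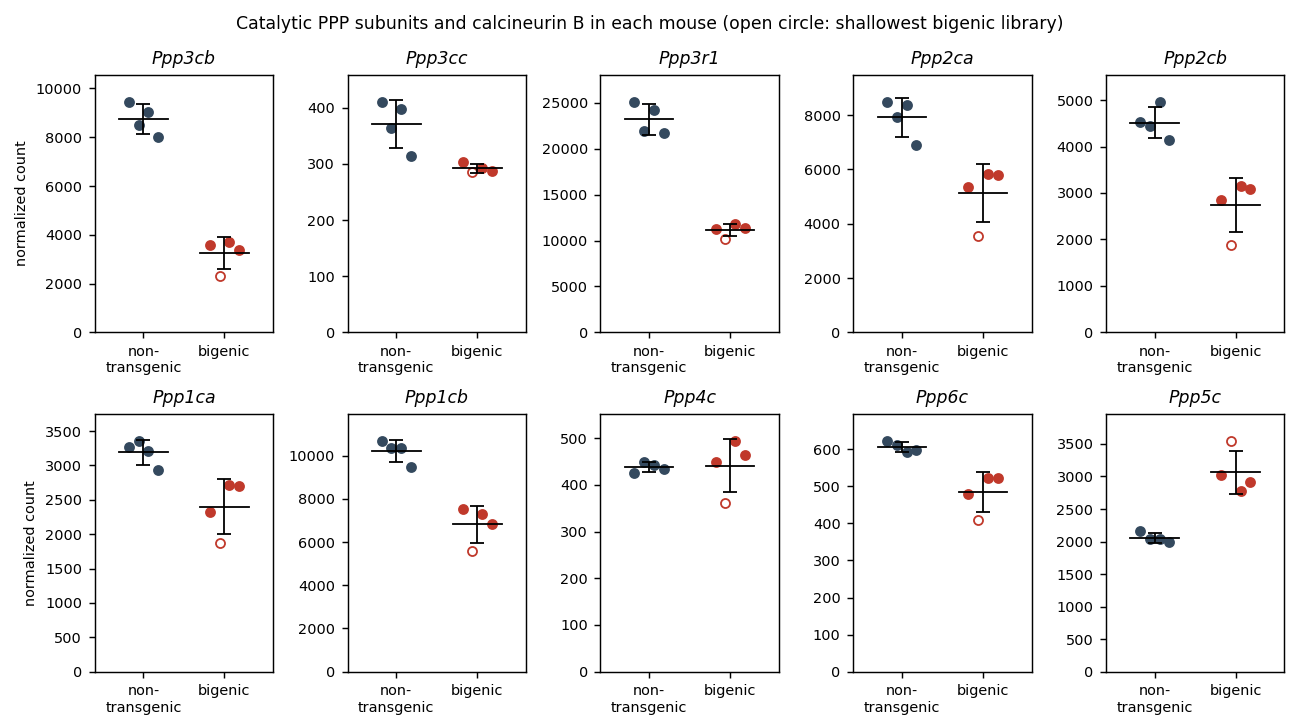
Normalized counts (y axis, from 0) of the 9 catalytic PPP subunits and calcineurin B in each of the 4 nontransgenic (dark) and 4 bigenic (red) mice, with the mean and SD; the open circle is the shallowest bigenic library. Ppp3cb lies between 2294 and 3716 in bigenic mice and between 8008 and 9439 in controls, Ppp4c overlaps, and Ppp5c is the one gene with all bigenic mice above the controls.

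Per kilobase of exon, the summed level of the 9 catalytic genes was 6908 ± 899 (SD, n = 4) in bigenic and 9936 ± 555 in nontransgenic mice, or 69.5% of the control level, without overlap. The summed level of the PPM genes was 4464 ± 152 against 4583 ± 106, with overlap. That of the regulatory genes with a known length was 25380 ± 2425 against 27850 ± 572, also with overlap. The overlap came from the shallowest library, at 29007, since the other bigenic mice (23973 to 24405) lay below every control (27013 to 28272). This regulatory sum includes Ppp3r1, at 3456 ± 209 per kilobase in bigenic and 7188 ± 520 in nontransgenic mice. The fall of Ppp3r1 alone was larger than that of the sum.

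The 7 falls among the catalytic genes were also 7 without the shallowest library and 7 without the bigenic mouse with the most striatal RNA described below. Without the first, the second or the third nontransgenic mouse the count was 4, since Ppp1ca, Ppp3cc and Ppp6c then had adjusted p-values of 0.051 to 0.091. Ppp3cb, Ppp3r1, Ppp2ca, Ppp2cb, Ppp1cb and Ppp5c passed with any 1 mouse left out. Without the shallowest library the log2 fold changes were -1.29 for Ppp3cb, -1.01 for Ppp3r1, -0.58 for Ppp2cb, -0.48 for Ppp2ca and 0.50 for Ppp5c. Over all 60 genes, the shallowest library was the highest bigenic mouse in 33 and the lowest in 22.

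Base composition moved with the fold change across these genes. The exons of the 59 genes with an annotation had a median GC content of 49.7%, and across them GC content and log2 fold change had a Pearson correlation of 0.52, against 0.19 across 10340 genes. The genes share libraries and are not independent, so this is a description. Ppp3cb had the lowest GC content of all (37.4%), while Ppp5c (57.5%) and Ppp1r12c (57.4%) were among the richest. After a trend on GC content and length was removed the log2 fold changes were -1.35 for Ppp3cb, -0.96 for Ppp3r1, 0.45 for Ppp5c and 0.38 for Ppp1r12c, and all 4 still passed.

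**Figure D3:**
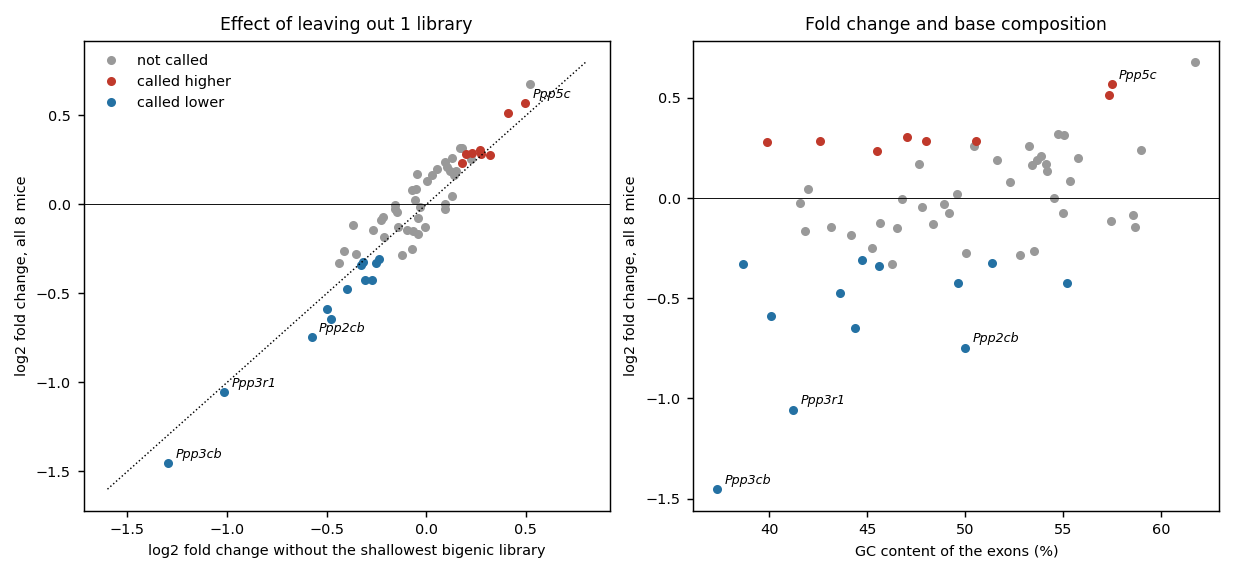
Left, the log2 fold change of each gene with all 8 mice (y axis) against that without the shallowest bigenic library (x axis), with a dotted line of equality; right, the same fold change against the GC content of the exons in percent. Ppp3cb goes from -1.45 to -1.29 when that library is left out, and it has the lowest GC content of the set at 37.4%.

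Regulatory subunits of PP1 recruit the enzyme to a place or hold it inactive, and 3 of 18 passed the threshold. Ppp1r12c, a myosin phosphatase targeting subunit, rose, with 2941, 4010, 2982 and 3063 normalized counts in bigenic and 2065, 2231, 2293 and 2450 in nontransgenic mice. Its groups did not overlap, and its log2 fold change was 0.51 (95% interval 0.27 to 0.76, limma adjusted p = 0.0056). Ppp1r16b, a membrane-linked targeting subunit also called TIMAP, fell, with 4104, 4136, 4319 and 4189 against 4766, 5240, 5689 and 5280. The bigenic mice were close together and all below the controls, with a log2 fold change of -0.32 (adjusted p = 0.0074). It was the most abundant gene of the targeting class by mean normalized count.

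Ppp1r11, an inhibitor of PP1, rose slightly, with 1889, 2364, 1880 and 1819 normalized counts in bigenic and 1652, 1573, 1599 and 1677 in nontransgenic mice. The groups were separate, and the log2 fold change was 0.28 (limma adjusted p = 0.038). It missed the threshold under 6 of 16 other settings, with an adjusted p of up to 0.10. The other inhibitors were not called, with log2 fold changes of -0.17 for Ppp1r2, -0.13 for Ppp1r14c, -0.08 for Ppp1r1b and -0.07 for Ppp1r1a. Without the shallowest library Ppp1r2 was at -0.043, Ppp1r14c at -0.0045 and Ppp1r1a at -0.22, and none was called.

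Ppp1r1b encodes DARPP-32, the dopamine-regulated PP1 inhibitor that marks striatal projection neurons, and its spread among the bigenic mice was the largest of the 60 genes relative to the mean. It gave 2243, 1582, 712 and 756 normalized counts in bigenic and 1138, 1402, 1048 and 1446 in nontransgenic mice. A pair of bigenic mice lay above every control and the other pair below every control, so the means hardly differed (1323 ± 732 against 1258 ± 195, limma adjusted p = 0.86). The bigenic mouse with the highest Ppp1r1b also had the highest Adora2a (640), Drd2 (246) and Rgs9 (905), genes of striatal projection neurons. The same genes were at 19, 6 and 99 in the shallowest library, which had the second highest Ppp1r1b.

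Over the 8 measured striatal markers, the summed normalized count ran from 4439 to 12023 in bigenic and from 5703 to 9245 in nontransgenic mice, and 1 of the 8, Penk, was called lower. None of the 8 was at 0. The part of striatal tissue in the Ppp1r1b values was not tested. Without that mouse the log2 fold change of Ppp1r1b was -0.40, and it was not called with any 1 mouse left out.

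**Figure D4:**
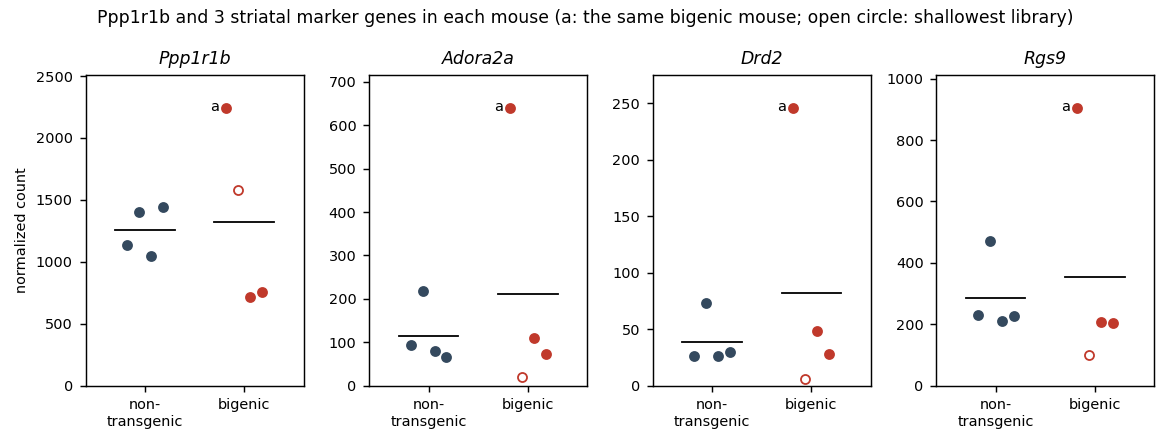
Normalized counts (y axes, from 0) of Ppp1r1b and of the striatal markers Adora2a, Drd2 and Rgs9 in each mouse, with group means as lines; the letter a marks the same bigenic mouse in each panel and the open circle the shallowest library. The marked mouse is the highest of the 8 in all 4 panels, at 2243 for Ppp1r1b and 640 for Adora2a.

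The glycogen-targeting subunits, which bring PP1 to glycogen, gave no call among 4 genes. Ppp1r3e had the largest positive log2 fold change of the 60, 0.68, and lay just outside the threshold (limma adjusted p = 0.0501). It passed the filter on low values through 1 mouse only, the shallowest bigenic library, so its place in this order rests on a group in which it was high. It was also among the lowest genes, with 108, 242, 189 and 183 normalized counts in bigenic and 113, 94, 132 and 97 in nontransgenic mice, so that 1 bigenic mouse lay among the controls. Ppp1r3c, the most abundant of them, had a log2 fold change of -0.33 (adjusted p = 0.062). The remaining PP1 partners were not called. Nuclear subunits ran from -0.04 for Ppp1r7, the most abundant of them, to 0.26 for Ppp1r8 on the log2 scale, and Ppp1r13b, of the ASPP class that binds p53, gave 0.26 (adjusted p = 0.058).

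PP2A is built from a catalytic, a scaffold and a variable B subunit, and 4 of the 15 regulatory genes passed. The scaffold Ppp2r1a gave 6579, 9565, 6072 and 6138 normalized counts in bigenic and 6657, 6170, 6492 and 7015 in nontransgenic mice. Only the shallowest library stood out. The log2 fold change was 0.08 (95% interval -0.22 to 0.39, limma adjusted p = 0.67), and it turned to -0.07 without that library. The level per kilobase of Ppp2ca plus Ppp2cb over that of Ppp2r1a was 1.17, 0.530, 1.39 and 1.35 in bigenic mice and 1.83, 1.91, 1.99 and 1.53 in nontransgenic mice, without overlap.

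The B55 subunits, which direct PP2A to substrates such as tau, split in direction. Ppp2r2b, the neuronal beta subunit, fell, with 2843, 1909, 2984 and 2871 normalized counts in bigenic and 3713, 3290, 3606 and 3421 in nontransgenic mice (log2 fold change -0.42, limma adjusted p = 0.034). Ppp2r2d, the delta subunit known from the control of mitotic entry, rose, with 1874, 1892, 1666 and 1619 against 1420, 1385, 1484 and 1409 (log2 fold change 0.30, adjusted p = 0.013). Both genes were separate between groups. Ppp2r2b missed the threshold without any 1 of the nontransgenic mice and when all columns were scaled to the same total, with an adjusted p of up to 0.090. Without the shallowest library the log2 fold change of Ppp2r2b was -0.27, still past the threshold. By contrast Ppp2r2d passed under all 16 settings. Ppp2r2c, the gamma subunit, was the most abundant B55 gene at 18882 ± 2047 against 16495 ± 564 and was not called (adjusted p = 0.10).

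Of the 5 B56 subunits, Ppp2r5e alone passed, with 3674, 4279, 3679 and 3578 normalized counts in bigenic and 3325, 3092, 3174 and 3299 in nontransgenic mice. Its bigenic mice all lay above the controls, with a difference of 0.24 on the log2 scale (limma adjusted p = 0.038), and it missed the threshold under 7 of 16 other settings. Ppp2r5c, the most abundant of the class over all 8 mice though below Ppp2r5e in the bigenic mice, gave a log2 fold change of -0.15 (adjusted p = 0.23). Ppp2r3c, a B'' subunit, rose, with 514, 575, 606 and 570 in bigenic and 489, 446, 461 and 463 in nontransgenic mice. Its groups did not overlap, at a log2 fold change of 0.28 (adjusted p = 0.022), and it missed the threshold under 4 of 16 other settings, with an adjusted p of up to 0.071. Only 55.4% of its 50-base windows were unique in the genome, so its counts rest on part of its length. Exons of 1110008L16Rik, on the opposite strand, overlap 245 bases of Ppp2r3c. Low shares of unique windows were also found for Ppp4r2 (36.3%), Ppm1b (57.9%) and Ppp1r2 (69.8%). Ppp2r3a, the most abundant B'' gene, gave 0.05 (adjusted p = 0.75), with the sign turning under quantile normalization, and Ppp2r4, the PP2A activator, gave 0.20 (adjusted p = 0.26).

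Ppp4r4, a regulatory subunit of PP4, fell while the PP4 catalytic gene was not called. It gave 884, 625, 713 and 730 normalized counts in bigenic and 1026, 1011, 1006 and 1027 in nontransgenic mice. The controls were nearly equal and all above the bigenic mice, with a log2 fold change of -0.47 (95% interval -0.70 to -0.25, limma adjusted p = 0.0061). Ppp4r1, the most abundant of the 4 PP4 regulatory genes over all 8 mice though below Ppp4r4 in the controls, gave 0.19 (adjusted p = 0.072). For PP6, whose catalytic gene fell, none of 3 regulatory genes was called. Ppp6r1, the most abundant, gave 2182, 4477, 2277 and 2210 against 2645, 2804, 2953 and 3103, so that the shallowest library lay above the controls and the other bigenic mice below. Its log2 fold change was -0.12 (adjusted p = 0.69), and -0.37 without that library (adjusted p = 0.0012).

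Of the 10 PPM genes, Ppm1k and Ppm1l rose and Ppm1e fell. Ppm1e, a neuronal phosphatase that acts on CaM kinases, was the most abundant of them, with 6243, 5150, 6302 and 6278 normalized counts in bigenic and 7815, 7295, 7325 and 7156 in nontransgenic mice. Its groups were separate, with a log2 fold change of -0.31 (95% interval -0.49 to -0.12, limma adjusted p = 0.017). Ppm1k, the mitochondrial phosphatase that activates branched-chain keto acid breakdown, gave 3745, 3156, 3386 and 3465 against 2850, 2718, 2887 and 2872. Ppm1l, a membrane-bound phosphatase of stress kinase pathways, gave 2495, 2866, 2287 and 2506 against 2155, 2089, 2018 and 2037.

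Both rises were without overlap and of like size, with log2 fold changes of 0.28 for Ppm1k (adjusted p = 0.016) and 0.29 for Ppm1l (adjusted p = 0.021). Ppm1a, which acts on SMAD proteins, lay just outside the threshold, with 4158, 4508, 4084 and 4251 normalized counts against 4813, 4687, 4980 and 4820 (log2 fold change -0.18, adjusted p = 0.0504), and its groups did not overlap. The other PPM genes were not called. Ppm1h gave -0.28 (adjusted p = 0.096), Ppm1b -0.15, Ppm1d -0.08, Ppm1m 0.09, Ppm1g 0.13 and Ppm1f 0.16 on the log2 scale. The signs of Ppm1g and Ppm1m turned when libraries were weighted by their quality, and that of Ppm1m also without the shallowest library.

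**Figure D5:**
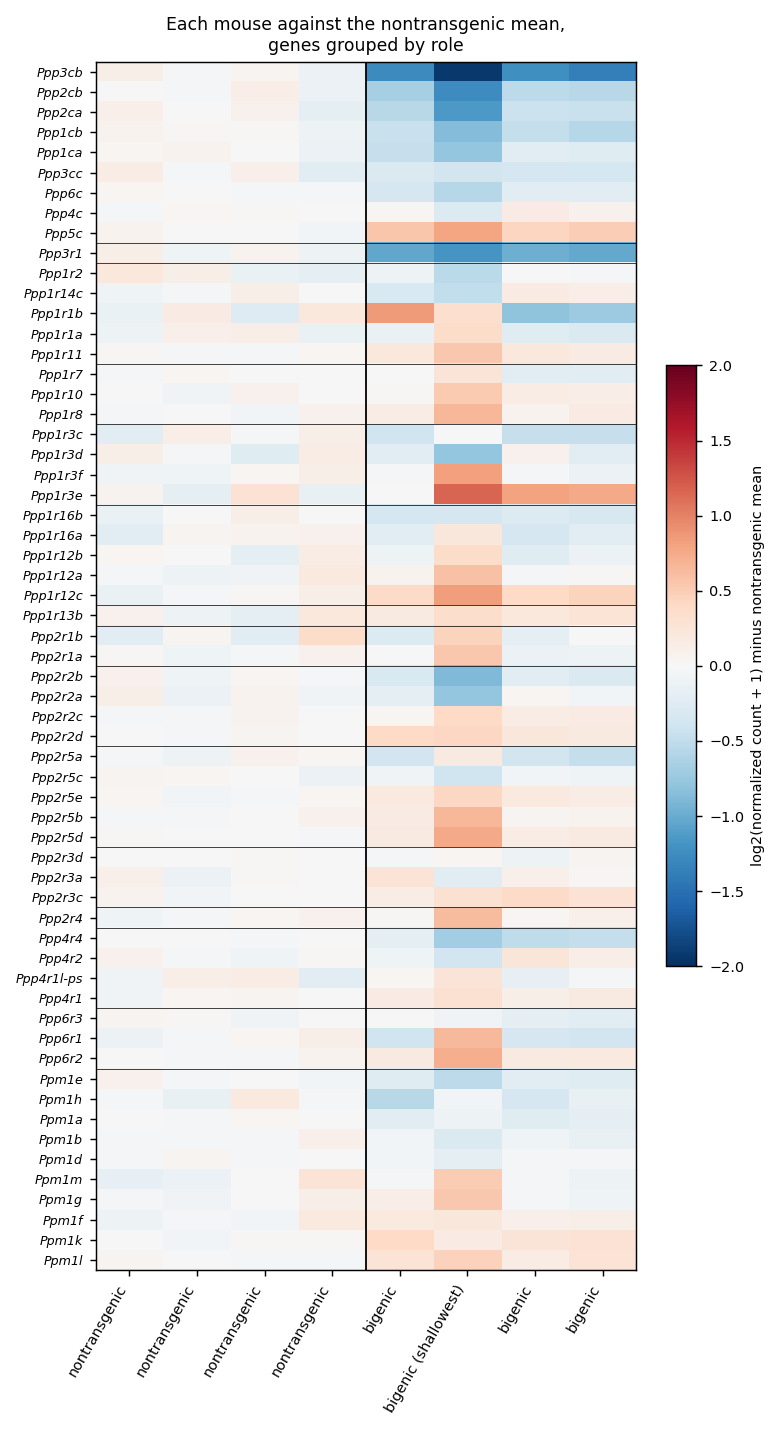
Colour gives log2(normalized count + 1) of each mouse minus the mean of the nontransgenic mice, for the 60 genes (rows, in the order of roles used for the fold changes) and 8 mice (columns, nontransgenic left, bigenic right). The catalytic rows at the top are blue in all 4 bigenic mice except Ppp4c and Ppp5c, and the shallowest bigenic library has the strongest colours in many regulatory rows.

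Promoter stretches of 250 bases upstream were matched for 46 of the 60 genes, with 58 start sites. The full cyclic AMP response element (TGACGTCA, which reads the same on both strands and holds the core TGACG) was found in 10.3% of these stretches, against 1.55% of the 32851 stretches of all genes and 2.78% of those of the genes tested. It stood in 6 of the 58 stretches, upstream of 5 of the 46 genes, Ppm1a, Ppm1d, Ppp1r12c, Ppp2ca and Ppp2r2d. Start sites of Ppp2r2d lie close together, so its element was counted more than once. The shares over all genes and over tested genes also count stretches and not genes. The core was found in 37.9%, against 17.8% of all stretches and 27.1% of those of tested genes. The GC box was found in 62.1%, against 32.7% of all but 58.6% of those of tested genes, and the CCAAT box in 36.2%, against 33.8% and 34.9%. The stretches around the full element are shown because they set genes of different direction side by side, with the element in capitals (GRCm38.p6, 5′ to 3′ along the gene).
Ppp2ca: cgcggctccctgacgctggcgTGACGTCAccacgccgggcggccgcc
Ppp1r12c: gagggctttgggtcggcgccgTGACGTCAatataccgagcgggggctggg
Ppp2r2d: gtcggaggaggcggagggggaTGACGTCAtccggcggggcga
Ppm1a: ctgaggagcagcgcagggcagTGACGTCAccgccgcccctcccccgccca
Ppm1d: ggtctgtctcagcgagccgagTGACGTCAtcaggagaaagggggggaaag
They lie at chr11:52098777-52098823 for Ppp2ca, chr7:4501721-4501770 for Ppp1r12c, chr7:138846317-138846358 for Ppp2r2d, chr12:72761054-72761103 for Ppm1a and chr11:85311148-85311197 for Ppm1d, with Ppp1r12c on the minus strand. Ppp2ca fell, Ppp1r12c and Ppp2r2d rose, and Ppm1a and Ppm1d were not called, so genes with the element did not share a direction. A match of letters is not a bound site.

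Genes that work with these phosphatases but lie outside the rule were read from a list of 39, of which 36 were measured. In bigenic mice 4 were higher, against 20.5% of all genes, and 4 lower, against 15.4%, and the median log2 fold change was 0.02. Among the lower were Rcan2, a regulator that binds calcineurin (log2 fold change -0.64, limma adjusted p = 0.0037), Phactr1, which binds PP1 and actin (-0.38, adjusted p = 0.0020), Tiprl, which binds PP2A-type catalytic subunits (-0.34, adjusted p = 0.012), and Pdp1, a pyruvate dehydrogenase phosphatase (-0.68, adjusted p = 0.0017). Among the higher were its relative Pdp2 (0.56, adjusted p = 0.013), Strn, the striatin subunit of PP2A (0.47, adjusted p = 0.0074), Smek2, a PP4 regulatory subunit (0.28, adjusted p = 0.020), and Ankrd52, a PP6 subunit (0.53, adjusted p = 0.035).

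The family symbols left out by the rule were split as well. Ppp1r9a, or neurabin, was lower (log2 fold change -0.43, limma adjusted p = 0.00089), and Ppp1r15a, the stress-induced subunit also called GADD34, was higher (0.66, adjusted p = 0.030). Ppp1r9b, or spinophilin, gave 0.42 (adjusted p = 0.082) and Ppp1r15b 0.06 (adjusted p = 0.73), and neither was called.

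Markers of the cells in the sample moved too. Of the excitatory cortical markers reported here, Camk2a was lower (log2 fold change -0.88), while Slc17a7 (0.15), Tbr1 (-0.24) and Neurod6 (-0.18) were not called. All 4 measured microglial markers were lower (summed normalized counts 2976 to 3402 against 3930 to 4573), as were 3 of 5 astrocyte markers (sums 22388 to 27156 against 29189 to 31575) and 2 of 6 inhibitory neuron markers (15136 to 15723 against 16917 to 18678). No oligodendrocyte marker of 5 was called (55334 to 75416 against 58148 to 73603), and 1 of 4 endothelial markers was lower (3000 to 3499 against 3388 to 4164). All 4 measured choroid plexus markers were higher (8385 to 19459 against 363 to 1203). None of these markers was at 0, and their part in the phosphatase results was not tested.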

How the data were processed

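The authors sequenced cortex RNA from 4 mice of each group as 50-base single reads. The submitters' processing notes name cutadapt, Bowtie 0.12.7, bedtools, DESeq2 and the mouse genome mm9. Uniquely mapped reads were counted per exon by the authors and merged into gene counts, and the deposited rows carry transcript identifiers. The deposited values are such counts after normalization by the authors, rounded to whole numbers, and are therefore treated as a score and not as raw counts. A second deposited table gave the symbols; it also holds the authors' fold changes and p-values, which were not used. The sources do not say that counting used strand, so reads of overlapping genes could be counted for both, and 15 of the 59 annotated genes overlap the exons of another.

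The 10588 genes that reached 10 RPM, scaled to the sum of each column, in 1 or more mice were compared by limma 3.58.1 (R 4.3.3) on log2(value + 1), with a mean trend and Benjamini-Hochberg adjustment over all genes, so fold changes of low genes are understated. The smallest detectable level follows the depth given in the report. The intervals come from the main limma fit, which weighted all libraries equally whatever their depth. Positions, exon lengths, GC content and unique 50-base windows were taken from GENCODE vM1 on NCBIM37 (mm9), and promoters from RefSeq on GRCm38.p6. Exon lengths join all annotated exons of a gene and may differ from the exons that the authors counted. Ppp2r3d was not found in that annotation.

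The genes named are every catalytic PPP and PPM gene, every gene with an adjusted p below 0.05 and the most abundant gene of each role class. Values in every mouse are given for catalytic genes and for the leading called genes of each class, and those of Ppp1r1b, Ppp1r3e, Ppp2r1a, Ppp6r1 and Ppm1a were added after they were seen. Partner genes are named where called. An excitatory neuron marker of the list used is not reported here. The rule, lists and tests were chosen with earlier results of these data known. Columns carry no replicate numbers, so mice are named by group only. The script was tested on simulated data. Alternatives were other pseudocounts and filters, equal totals, quantile normalization, array weights, removal of a GC and length trend, and leaving out each mouse. The count of catalytic genes called was added as a result after the data were seen.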

Additional observations from a re-analysis of the deposited data

Results flagged for a closer look

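In groups of 4 mice, a gap from the outermost mouse to its neighbour that takes up most of the group's range marks a mouse far from the others (Dixon's test at the 95% level), and chance gives this in about 1 in 20 groups. It was met 21 times in 120 groups, 19 of them by the shallowest bigenic library. That library was far above the other bigenic mice for Ppp1r3c (0.868, at 1338), Ppp1r3f (0.927, at 860), Ppp1r11 (0.872, at 2364), Ppp1r12a (0.874, at 4587), Ppp1r12c (0.886, at 4010), Ppp1r16a (0.831, at 1357), Ppp1r8 (0.88, at 1363), Ppp2r5a (0.866, at 2533), Ppp2r5b (0.84, at 3212), Ppp2r5d (0.941, at 2473), Ppp2r5e (0.856, at 4279), Ppp2r4 (0.895, at 3927), Ppp2r1a (0.855, at 9565), Ppp6r1 (0.959, at 4477), Ppp6r2 (0.974, at 2939), Ppm1m (0.896, at 393), where the first number is the gap over the range and the second the normalized count. It was far below them for Ppp2r2b (0.869, at 1909), Ppp2r5c (0.887, at 3015), Ppm1e (0.949, at 5150). Of these genes, Ppp1r11, Ppp1r12c and Ppp2r5e were called higher and Ppp2r2b and Ppm1e lower with that library included, and all 5 were called without it. Another 6 of them were not called in the main fit with all 8 mice and were called without it (limma adjusted p from 0.00056 to 0.030). Ppp1r3c, Ppp1r16a, Ppp2r5a and Ppp6r1 were then lower, with log2 fold changes of -0.44, -0.27, -0.41 and -0.37. Ppp2r5d and Ppp6r2 were then higher, with 0.17 and 0.18. All these genes were picked by the distance of that library, so leaving it out narrows their spread in advance. The calls made without that library are no separate evidence for the genes. With all 8 mice and the GC and length trend removed, Ppp1r16a (-0.29, limma adjusted p = 0.025) and Ppp2r5a (-0.32, adjusted p = 0.049) were called. Ppp1r3c was called with all 8 mice under quantile normalization (-0.38, adjusted p = 0.031). Ppp6r1, Ppp2r5d and Ppp6r2 passed under neither of these settings. Without that library 45.5% of all genes tested were called, against 35.9% with all 8 mice.

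Among the nontransgenic mice, 1 mouse was far below the others for Ppp1r16a (0.905, at 1011) and another far above them for Ppm1b (0.868, at 1397).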

How the results depend on the processing

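No paired analysis was possible because the value columns carry no replicate numbers. Across the other settings the genes called higher numbered 6 to 11 and those called lower 12 to 15, except that weighting each library by its quality (array weights) gave 17 higher and 22 lower, with 61.0% of all genes then called. With 1 mouse left out, genes called higher ranged from 3 to 10, genes called lower from 8 to 18 and catalytic genes called lower from 4 to 7. The 3 came without the second nontransgenic mouse and the 4 higher without the third one, in fits that called 25.2% and 25.1% of all genes, and the 18 lower without the shallowest library, with 45.5% of all genes called. Catalytic genes called lower numbered 4 without the first, the second or the third nontransgenic mouse. Of 320 results for genes called, 283 kept direction and call, 37 lost the call and none reversed. Of 288 results for the named genes not called, 248 stayed as they were, 24 gained a call and 16 changed sign.

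Genes near 0 changed sign. With array weights Ppm1g went to -0.018, Ppm1m to -0.0057 and Ppp2r1a to -0.063 on the log2 scale. Under quantile normalization Ppp2r3a and Ppp4c went to -0.0081 and -0.023, and Ppp4c went to -0.033 with the GC and length trend removed. With 1 mouse left out, Ppp4c ranged from -0.054 to 0.094, Ppm1m from -0.051 to 0.18, Ppp1r7 from -0.15 to 0.015, Ppp2r1a from -0.071 to 0.15 and Ppp2r3a from -0.028 to 0.13. The cause of these shifts was not tested. Depth limits the lowest genes most, such as Ppp1r3e at 94 to 242 normalized counts. No setting moved the median of all genes by over 0.1.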
